A study of Mus musculus with 2 samples.

Results

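The Nrf2 antioxidant genes and haem oxygenase are described here as 10 genes chosen by name: Nfe2l2, Keap1, Hmox1, Nqo1, Gclc, Gclm, Txnrd1, Srxn1, Prdx1 and Gsr. All 10 were found by Entrez Gene number among the 18090 gene IDs listed in either of 2 RNA-seq libraries, and all 10 had at least 1 RPKM (reads per kilobase of gene model and per 1000000 reads counted to genes) in a library. The mature library came from C57BL/6 bone marrow cells that spent 6 days in RPMI-1640 with the cytokines GM-CSF (10 ng/ml) and IL-4 (1 ng/ml), and then 24 h with 100 ng/ml of lipopolysaccharide (LPS, an outer membrane molecule of bacteria that activates Tlr4) beside both cytokines. The treatment protocol gives the LPS step for sample 2, which was read here as the mature library. The immature library was made from C57BL/6 marrow cells grown in the same way with no LPS named in the labels, which do not say whether these cells spent the extra 24 h in culture. Both were sorted by surface CD86 and I-Ab, an MHC class II protein, with gates that the labels do not give, and neither the number of animals nor any replicate is given. With 1 library per state there is no replicate error and no test between the states was possible, and all differences described are between these 2 libraries alone.

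Nrf2, the protein of Nfe2l2, is a transcription factor that is held low in resting cells by Keap1, an adaptor that hands it to a Cul3 ubiquitin ligase for destruction. Oxidants and electrophiles modify cysteines of Keap1, Nrf2 then accumulates, pairs with small Maf proteins and binds antioxidant response elements near genes for glutathione synthesis, thioredoxin reduction, quinone reduction and haem breakdown. Bach1 competes for the same elements and is displaced by haem, which gives Hmox1 a control of its own. In dendritic cells and macrophages the pathway is known for limiting oxidant damage and for restraining inflammatory cytokine genes. The activity of Nrf2 is set largely through its protein, which RNA counts do not measure.

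Promoter windows from RefSeq, reaching from 250 bases before to 50 bases after a gene's start on GRCm38.p6, were searched for the core of the antioxidant response element, TGACNNNGC, on both strands. Windows were used for 7 of the 10 genes, and those of Hmox1, Gclc and Gsr were not analysed here. The core was found in at least 1 window of 5 of these 7 genes, Nfe2l2, Srxn1, Gclm, Prdx1 and Txnrd1, and not in those of Nqo1 and Keap1. Of all 32851 windows supplied, 12.4% held it, and of all 27025 genes with a window 14.0%. Among other genes of the pathway, listed further on, 22 of 117 genes with a window held it (18.8%). A match is a string of letters and not a measured binding site, and its absence says only that these letters are not in this window. The 5 windows with a match are shown because their genes differ in direction between the libraries while sharing the core. They are written 5′ to 3′ on the strand of the gene, with the core in capitals.
Prdx1, chr4:116685349-116685648, plus strand: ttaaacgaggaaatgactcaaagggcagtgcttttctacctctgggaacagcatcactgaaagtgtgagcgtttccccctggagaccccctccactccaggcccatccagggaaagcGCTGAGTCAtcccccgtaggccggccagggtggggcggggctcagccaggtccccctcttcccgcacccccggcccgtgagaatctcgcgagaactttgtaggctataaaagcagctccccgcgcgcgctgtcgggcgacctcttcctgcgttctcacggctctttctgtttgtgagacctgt
Srxn1, chr2:152105274-152105573, plus strand: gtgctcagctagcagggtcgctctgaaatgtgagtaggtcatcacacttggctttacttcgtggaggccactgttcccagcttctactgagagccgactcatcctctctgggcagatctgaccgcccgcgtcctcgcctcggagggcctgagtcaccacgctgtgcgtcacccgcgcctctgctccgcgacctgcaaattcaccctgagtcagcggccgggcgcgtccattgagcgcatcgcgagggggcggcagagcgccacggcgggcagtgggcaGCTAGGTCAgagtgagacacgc
Txnrd1, chr10:82858956-82859255, plus strand: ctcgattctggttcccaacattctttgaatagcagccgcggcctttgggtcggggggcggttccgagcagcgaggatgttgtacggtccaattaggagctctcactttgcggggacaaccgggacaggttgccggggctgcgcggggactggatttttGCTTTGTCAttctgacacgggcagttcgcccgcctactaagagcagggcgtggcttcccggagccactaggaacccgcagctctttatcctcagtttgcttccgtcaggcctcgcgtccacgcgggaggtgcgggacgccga
Gclm, chr3:122245307-122245606, plus strand: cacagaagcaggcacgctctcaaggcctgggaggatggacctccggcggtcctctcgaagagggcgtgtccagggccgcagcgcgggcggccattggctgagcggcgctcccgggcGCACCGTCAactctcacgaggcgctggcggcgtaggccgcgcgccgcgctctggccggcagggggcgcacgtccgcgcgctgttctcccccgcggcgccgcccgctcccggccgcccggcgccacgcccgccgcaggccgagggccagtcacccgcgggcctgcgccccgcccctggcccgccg
Nfe2l2, chr2:75704614-75704913, minus strand: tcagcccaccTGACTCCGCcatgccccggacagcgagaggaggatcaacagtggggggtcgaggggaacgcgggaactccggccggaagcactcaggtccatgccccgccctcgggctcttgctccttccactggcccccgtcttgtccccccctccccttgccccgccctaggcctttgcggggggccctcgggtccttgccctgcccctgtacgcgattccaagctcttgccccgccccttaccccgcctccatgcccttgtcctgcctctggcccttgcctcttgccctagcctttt
Read on the strand of the motif, the cores were TGACTCAGC in Prdx1, TGACCTAGC in Srxn1, TGACAAAGC in Txnrd1, TGACGGTGC in Gclm and TGACTCCGC in Nfe2l2. The Prdx1 core begins with TGACTCA, letters that also spell the AP-1 consensus, so that match overlaps another motif. In Prdx1 and Gclm the match lay at nearly the same place, bases 118 to 126 and bases 117 to 125 counted from 1 at the 5′ end of the window. The Srxn1 match lay downstream of the gene's start, at bases 279 to 287. Upstream of the start, the same window also holds TGAGTCA, the AP-1 letters read on the other strand. The searched pattern did not mark these letters. Txnrd1 has 3 windows, of which the second held the match.

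The mature library held 8.07 M counted reads and the immature library 7.56 M, and the 10 genes took 0.573% of the reads in the mature library and 0.258% in the immature library. All 14 dendritic cell genes listed had at least 1 RPKM in a library. So did all 15 neutrophil and granulocyte precursor genes listed, so reaching this level does not check the labelled cell type. Of the 14 dendritic cell genes, 4 were at least 2-fold higher and 3 lower, Itgax, Dpp4 and Kmo. Their summed levels were 6928 RPKM in the mature and 8855 RPKM in the immature library. The listed class II chain genes lay within 2-fold and were split in direction. H2-Aa stood at 1260.4 RPKM in the mature and 1159 RPKM in the immature library. H2-Eb1 stood at 732 RPKM in the mature and 655 RPKM in the immature library. H2-Ab1 was lower in the mature library, at 978 RPKM against 1256 RPKM in the immature library. Cd86, a gene of the sort, stood at 152 and 26.1 RPKM in the mature and immature libraries. The sort used CD86 and I-Ab, so the levels of these genes do not check the labelled cell type. The summed levels of neutrophil, macrophage and eosinophil lists were higher in the immature library, and that of the B, T and NK cell list was slightly higher in the mature library. Of 15 neutrophil and granulocyte precursor genes, 11 were at least 2-fold lower in the mature library and 0 were higher, with summed levels of 2055 RPKM in the mature and 8353 RPKM in the immature library and no gene at 0 reads in either. Of 13 macrophage and monocyte genes with at least 1 RPKM, 7 were lower by at least 2-fold and 0 were higher. The summed levels over all 16 were 2014 RPKM in the mature and 9499 RPKM in the immature library, with no gene at 0 reads. Most of both sums came from Lyz2, at 1324 RPKM in the mature and 8168 RPKM in the immature library. Of 8 eosinophil, basophil and mast cell genes, 6 were lower by at least 2-fold and 0 were higher, and the summed levels over the 9 listed were 24.9 RPKM in the mature and 406 RPKM in the immature library, with no gene at 0 reads. Erythroid cells are the cells richest in haem, and of 7 erythroid genes listed none had more than 6 reads in a library. Their sum was 0.797 RPKM in the mature and 1.97 RPKM in the immature library, and Epb42 was at 0 in the immature library. Of 11 B, T and NK cell genes, none had more than 16 reads in a library. Their sum was 5.34 RPKM in the mature library, with Pax5 and Klrb1c among those at 0 reads, and 4.18 RPKM in the immature library, with Ncr1 at 0. In RNA of a sorted population, fewer cells of a type and less RNA per cell cannot be told apart, and the part of these cells in the values below was not tested.

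Most of the 10 genes were higher in the mature library. Calls were made on log2 of (mature RPKM + 1) over (immature RPKM + 1), with a call of 2-fold higher from 1 upwards and of 2-fold lower from -1 downwards; the added 1 understates the fold of low genes. On this rule 5 of 10 genes were called at least 2-fold higher: Hmox1, Nqo1, Gclc, Prdx1 and Srxn1. No gene of the 10 was at least 2-fold lower. Among all 11547 genes that reached 1 RPKM in either library, 9.05% were at least 2-fold higher and 11.3% at least 2-fold lower. The median log2 fold was 0.95 over the 10 genes and 0.026 over all genes compared. Txnrd1 and Gclm were higher by less than 2-fold, Keap1 lay closest to 0, and Nfe2l2 and Gsr were lower and just inside the 2-fold line. Under edgeR's TMM scaling the split was 4 higher, without Srxn1, and 1 lower, Nfe2l2. The exact 95% interval of the ratio lay wholly above 2-fold for 4 of 10 genes (7.23% of all genes), with Srxn1 left out. At 4-fold the count of higher genes was 0, against 1.71% of all genes.

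**Figure D1:**
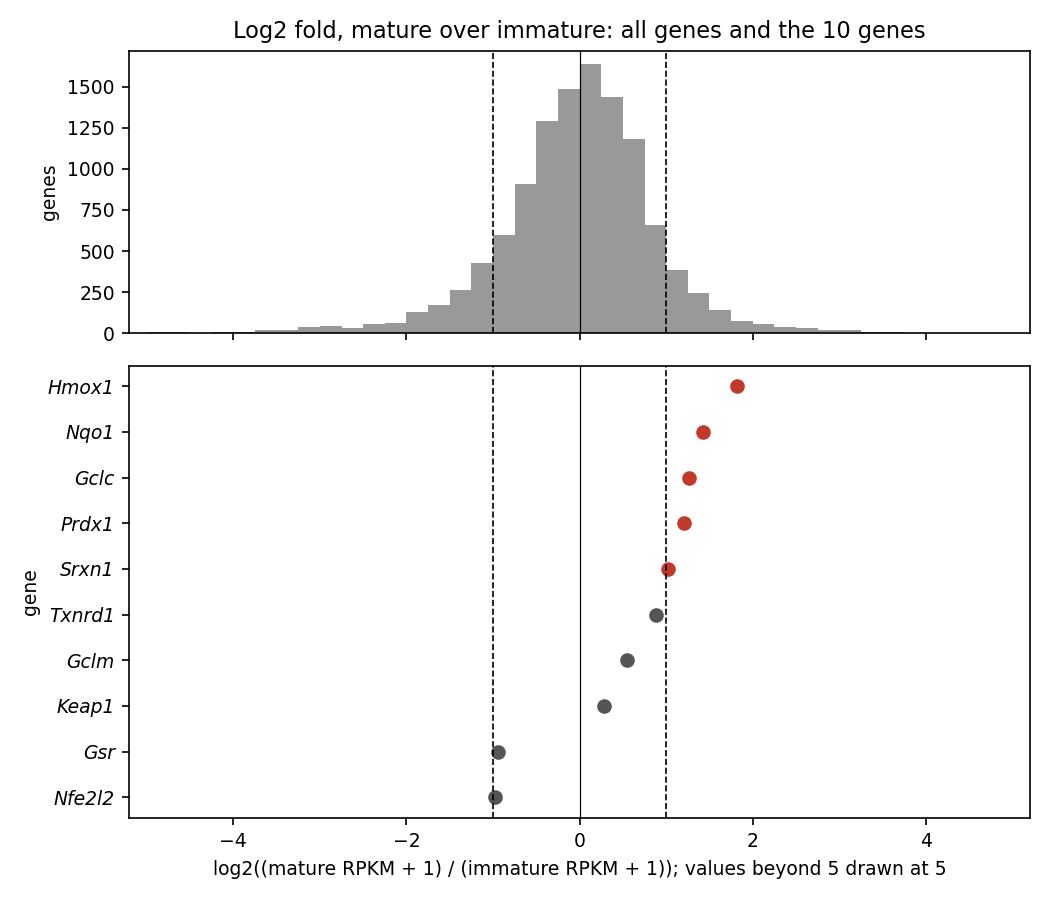
The upper panel counts all 11547 genes by log2 fold of mature over immature RPKM with 1 added to each, and the lower panel shows the 10 genes on the same axis, with dashed lines at 2-fold and the genes beyond them in red. Hmox1 stood furthest to the right at 1.82, and Nfe2l2 furthest to the left at -0.97.

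By level per length Prdx1, Hmox1 and Txnrd1 led in this order in both libraries, with Prdx1 and Hmox1 well above the rest. In the mature library Prdx1 was the gene of rank 19 and Hmox1 of rank 22 by RPKM among all listed genes, while in the immature library they ranked 82 and 154. After Txnrd1 in the mature library came Srxn1, Gclm, Nfe2l2, Gclc, Gsr, Nqo1 and Keap1. The exact Poisson intervals, which cover counting error only, overlapped between Nfe2l2 and Gclc, between Gsr and Nqo1 and between Nqo1 and Keap1, so these neighbours could not be ordered. In the immature library the order after Txnrd1 was Nfe2l2, Gclm, Srxn1, Gsr, Keap1, Gclc and Nqo1, with overlap between Srxn1 and Gsr and between Keap1 and Gclc. For each of the 10 genes the mature and immature intervals did not overlap.

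**Figure D2:**
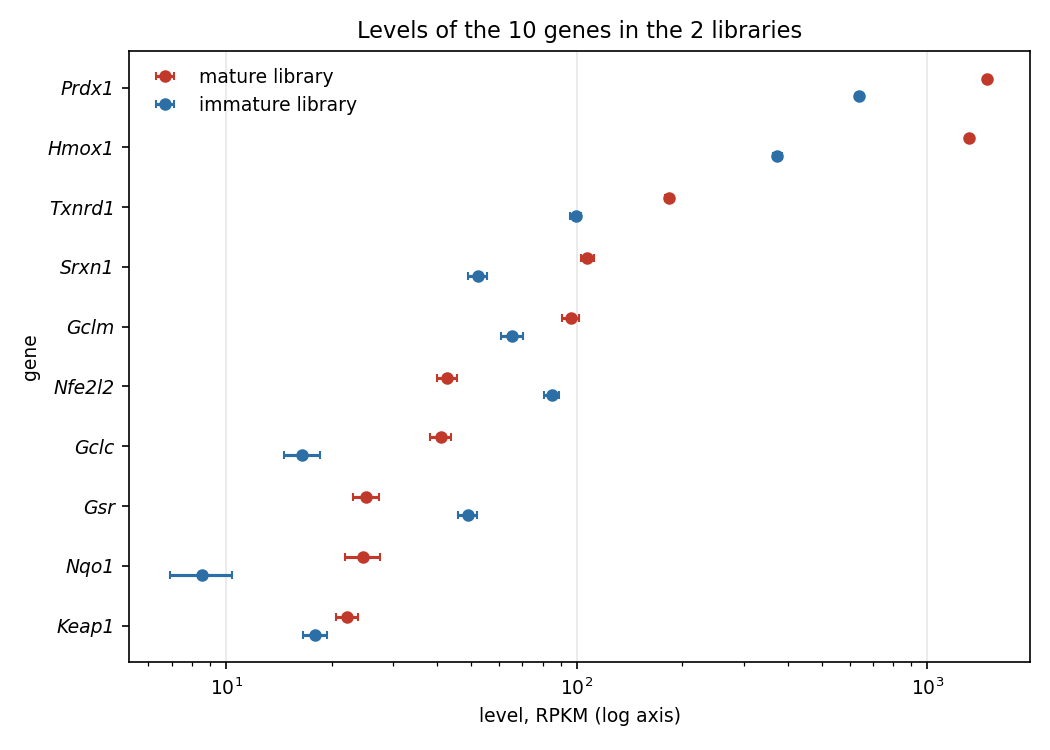
Levels of the 10 genes in RPKM on a log axis, with the mature library above the immature library for each gene and bars for exact 95% Poisson intervals of counting error. Prdx1 and Hmox1 exceed 1000 RPKM in the mature library, and Nfe2l2 and Gsr are the genes with the immature point to the right.

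The regulator was lower and its inhibitor slightly higher in the mature library. Nfe2l2 (Entrez Gene 18024) had 851 reads, 42.7 RPKM, in the mature library and 1585 reads, 84.9 RPKM, in the immature library. It was 1.99-fold lower in the mature library (1.83 to 2.16, the exact 95% counting interval), and 11.8% of all genes compared had a lower log2 fold. Keap1 (50868) had 798 reads, 22.1 RPKM, in the mature and 607 reads, 18.0 RPKM, in the immature library, 1.23-fold higher (1.11 to 1.37). The level ratio of Nfe2l2 to Keap1, per length, was 1.93 (1.75 to 2.13) in the mature library and 4.73 (4.3 to 5.2) in the immature library. Nfe2l1, which encodes a related factor that controls proteasome genes, was the more abundant of the pair in the mature library: the level ratio of Nfe2l2 to Nfe2l1 was 0.586 (0.542 to 0.633) in the mature and 2.07 (1.93 to 2.22) in the immature library.

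Among 13 other genes of Nrf2 control with at least 1 RPKM, 1 was at least 2-fold higher and 1 lower, with a median log2 fold of 0.14. The higher gene was Sqstm1, whose product p62 carries cargo to autophagosomes and binds Keap1. It had 13188 reads, 817 RPKM, in the mature and 3756 reads, 248 RPKM, in the immature library, 3.29-fold higher (3.17 to 3.41). The lower gene was Nfe2, a relative of Nfe2l2 known from megakaryocytes and erythroid cells, at 5.39 RPKM in the mature and 26.8 RPKM in the immature library, 4.97-fold lower (3.88 to 6.43). Bach1, the repressor that competes with Nrf2, lay within 2-fold at 9.35 RPKM in the mature and 11.6 RPKM in the immature library, and so did the small Maf gene Maff, at 17.5 and 23.7 RPKM in the mature and immature libraries. Mafg was not analysed here.

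Hmox1 (15368), which encodes the inducible haem oxygenase that opens haem into biliverdin, carbon monoxide and iron, had the highest log2 fold of the 10 genes. It had 17381 reads in the mature and 4614 in the immature library, or 1318 and 373 RPKM in the mature and immature libraries. Its ratio was 3.53-fold (3.42 to 3.65), and 2.17% of all genes compared had a higher log2 fold. Hmox2, the constitutive haem oxygenase, stood at 52.3 RPKM in the mature and 70.2 RPKM in the immature library, 1.34-fold lower (1.2 to 1.5), so that Hmox1 made up 96.2% of the summed RPKM of both in the mature library and 84.2% in the immature library. The ratio of Hmox1 to Hmox2 was 25.2 (23.1 to 27.5) in the mature library and 5.32 (4.91 to 5.78) in the immature library.

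Of 20 other genes of haem breakdown, haem supply and iron, 2 were at least 2-fold higher and 2 lower, with a median of 0.059. Blvrb, a biliverdin reductase that acts downstream of haem oxygenase, stood at 172 RPKM in the mature and 181 RPKM in the immature library, and its ratio of 0.95 (0.876 to 1.03) had an interval that included 1. Blvra, the other biliverdin reductase, named after its values were seen, stood at 13.8 RPKM in the mature and 27.8 RPKM in the immature library, a plain ratio 2.02-fold lower (1.66 to 2.47) that lay within 2-fold once 1 RPKM was added. The ferritin heavy chain gene Fth1, the most abundant gene of both libraries, stood at 29209.5 RPKM in the mature and 18535 RPKM in the immature library, 1.58-fold higher (1.56 to 1.59). The ratio of Fth1 to Hmox1 was 22.2 in the mature library (21.8 to 22.5) and 49.6 in the immature library (48.2 to 51.1). Ftl1, the ferritin light chain, was 1.31-fold higher (1.29 to 1.34), with reads over 37.5% of its length in the mature and 37.6% in the immature library, so its level is uncertain. The iron exporter gene Slc40a1 was low, at 8.9 RPKM in the mature and 4.65 RPKM in the immature library. The higher genes were Slc48a1, which carries haem out of the phagolysosome, 2.14-fold higher (2.03 to 2.26), and the iron transporter Slc11a2, 2.72-fold higher (2.35 to 3.17). The lower genes included Hp, which encodes the haemoglobin binder haptoglobin, 9.28-fold lower (8.33 to 10.4). Hp is also expressed by maturing granulocytes, whose genes all had a log2 fold below 0 in the list of 15, 11 of them past 2-fold, and the part of such cells was not tested.

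The genes of glutathione differed by step. Glutamate-cysteine ligase, which makes the limiting step of glutathione synthesis, has a catalytic chain from Gclc and a modifier chain from Gclm. Gclc (14629) had 764 reads, 40.9 RPKM, in the mature and 288 reads, 16.5 RPKM, in the immature library, 2.49-fold higher (2.17 to 2.86). Gclm (14630) had 1139 reads, 96.0 RPKM, in the mature and 727 reads, 65.4 RPKM, in the immature library, 1.47-fold higher (1.34 to 1.61). The modifier transcript exceeded the catalytic transcript in both libraries, with a level ratio of Gclm to Gclc of 2.35 (2.14 to 2.58) in the mature and 3.97 (3.46 to 4.57) in the immature library. Gsr (14782), the reductase that returns oxidised glutathione to its reduced form at the cost of NADPH, went the other way, with 544 reads, 25.0 RPKM, in the mature and 995 reads, 48.9 RPKM, in the immature library. It was 1.95-fold lower (1.76 to 2.17). Reads covered 52.4% of the Gsr model in the mature and 52.6% in the immature library, so its level is uncertain.

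Around the ligase, 11 genes of glutathione synthesis and cystine supply held 1 that was at least 2-fold higher and 1 lower, with a median of 0.056. Slc7a11, the cystine transporter that supplies cysteine for glutathione, was higher, with 6322 reads, 84.9 RPKM, in the mature and 2870 reads, 41.1 RPKM, in the immature library, 2.06-fold (1.97 to 2.16). Slc1a5, a glutamine transporter, was 2.14-fold lower (1.92 to 2.4). Gss, the enzyme of the final step, was 1.5-fold higher (1.26 to 1.79), at 23.0 RPKM in the mature and 15.3 RPKM in the immature library. Of 24 genes that use glutathione, 3 were at least 2-fold higher and 4 lower, with a median of -0.17. Of all genes compared, 9.05% were higher and 11.3% lower. All 3 higher genes encode glutathione S-transferases, which attach glutathione to electrophiles. Much of this list encodes transferases, and Mgst3 and Gstt1 among the lower genes do so too. Gstm1 stood at 248 RPKM in the mature and 74.2 RPKM in the immature library, 3.34-fold higher (3.08 to 3.63), and Gstm2 was 3.07-fold higher (2.42 to 3.91). The Gstm genes resemble each other closely, and reads that fit more than 1 of them would not have been counted. Gsta3 rested on 29 reads in the mature and 3 in the immature library, a ratio of 9.06 (2.81 to 46.5). The lower genes included the secreted peroxidase Gpx3, 5.08-fold lower (3.91 to 6.67), the microsomal transferase Mgst3, 2.75-fold lower (1.95 to 3.94), and the transferase Gstt1, 2.33-fold lower (1.61 to 3.41). Gpx1, the abundant cytosolic peroxidase, stood at 558 RPKM in the mature and 492 RPKM in the immature library, within 2-fold.

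In the thioredoxin arm all 3 of the 10 genes were higher in the mature library. Txnrd1 (50493), the cytosolic selenoenzyme that reduces thioredoxin with NADPH, had 5385 reads, 184 RPKM, in the mature and 2726 reads, 99.2 RPKM, in the immature library, 1.85-fold higher (1.77 to 1.94). Prdx1 (18477), a peroxiredoxin that reduces hydrogen peroxide with thioredoxin, had 16871 reads, 1475 RPKM, in the mature and 6850 reads, 639 RPKM, in the immature library, 2.31-fold higher (2.24 to 2.37). Srxn1 (76650), sulfiredoxin, which restores peroxiredoxins whose cysteine has been over-oxidised, had 2235 reads, 107 RPKM, in the mature and 1018 reads, 52.1 RPKM, in the immature library, 2.06-fold higher (1.91 to 2.22). Its interval reached within 2-fold. Prdx1 and its repair enzyme stood in nearly the same proportion, with a level ratio of Prdx1 to Srxn1 of 13.8 (13.2 to 14.4) in the mature and 12.3 (11.5 to 13.1) in the immature library.

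Within the peroxiredoxin family the leading gene differed between the libraries. Prdx1 held 67.5% of the family's summed RPKM in the mature and 34.2% in the immature library, while Prdx5, a peroxiredoxin of mitochondria, peroxisomes and cytosol, held 18.9% in the mature and 50.5% in the immature library. The sums themselves were close, at 2185 RPKM in the mature and 1869 RPKM in the immature library. Prdx5 had 2294 reads in the mature and 4912 in the immature library and was 2.29-fold lower (2.17 to 2.4). The level ratio of Prdx1 to Prdx5 was thus 3.57 (3.42 to 3.73) in the mature and 0.677 (0.653 to 0.703) in the immature library. Prdx4, the peroxiredoxin of the endoplasmic reticulum, was 2.52-fold lower (2.06 to 3.1), Prdx2 stood at 230 and 181 RPKM in the mature and immature libraries, within 2-fold, and Prdx6 was covered by reads over 24.4% of its model in the mature and 29.5% in the immature library, so its level is uncertain. Txnrd1 supplied 96.7% of the summed thioredoxin reductase level in the mature and 92.9% in the immature library. Reads covered 31.3% of the Txnrd2 model in the mature and 30.3% in the immature library. For Txnrd3 they covered 40.7% in the mature and 55.4% in the immature library, so these shares are uncertain.

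**Figure D3:**
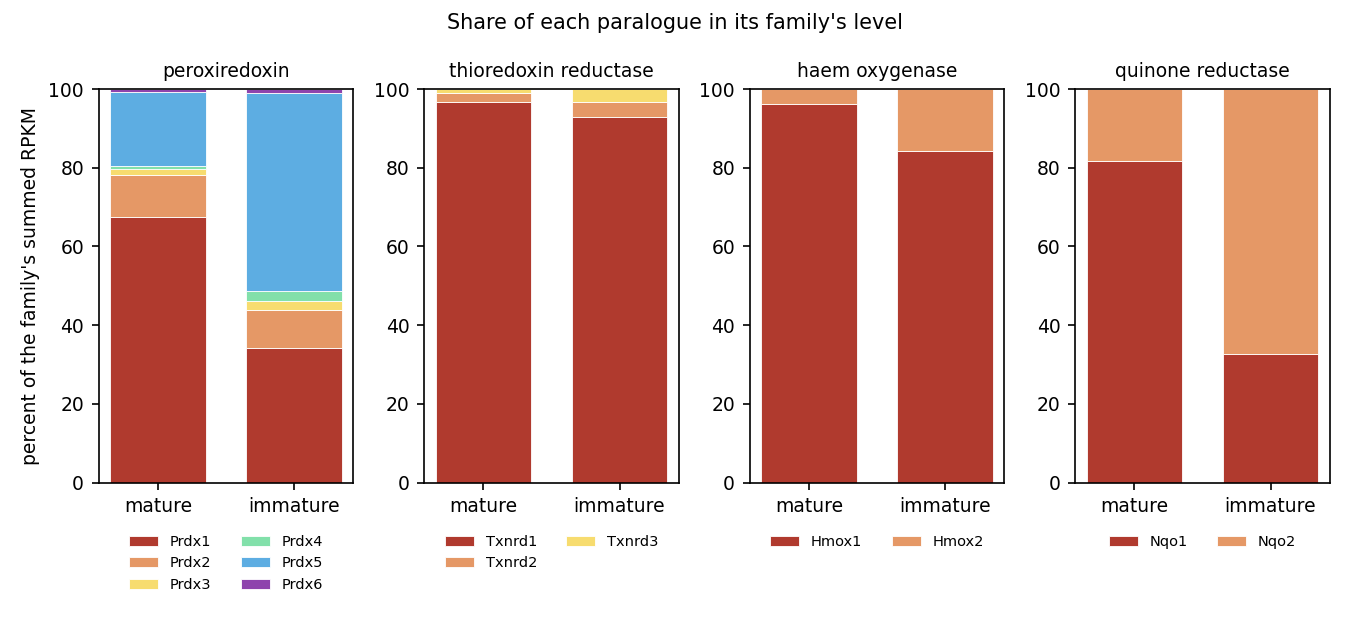
Stacked bars give each paralogue's percent of the summed RPKM of its family, with the mature library left of the immature library. Prdx1 takes 67.5% in the mature and 34.2% in the immature library, and Nqo1 81.7% in the mature and 32.7% in the immature library.

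Among 18 other genes of the thioredoxin and peroxiredoxin system, 3 were at least 2-fold higher and 5 lower, with a median of -0.24. The higher genes were Sesn3, a stress-induced inhibitor of mTORC1 signalling, 4.57-fold higher (2.95 to 7.34), Txndc17, a thioredoxin-like protein, 2.88-fold higher (2.67 to 3.1), and Txnip, the inhibitor that binds reduced thioredoxin, 2.47-fold higher (2.35 to 2.6). Reads covered 58.2% of Txndc17 in the mature and 51.8% in the immature library, so its level is uncertain. Msrb2, a mitochondrial methionine sulfoxide reductase, was 5.34-fold lower (2.84 to 10.9) on 12 reads in the mature and 60 in the immature library. Txn1, thioredoxin itself, stood at 185 RPKM in the mature and 239 RPKM in the immature library, 1.29-fold lower (1.21 to 1.38). Reads covered 53.0% of Txn1 in the mature and 59.4% in the immature library, so its level is uncertain. The level ratio of Txnrd1 to Gsr, the NADPH-dependent reductases of thioredoxin and glutathione, was 7.33 (6.71 to 8.02) in the mature and 2.03 (1.89 to 2.18) in the immature library.

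Nqo1 (18104), which reduces quinones directly to hydroquinones with NADH or NADPH, was the least abundant of the 10 genes in the immature library. It had 307 reads, 24.5 RPKM, in the mature and 100 reads, 8.52 RPKM, in the immature library, 2.88-fold higher (2.29 to 3.64). Nqo2, its paralogue, which uses other reduced nicotinamide cofactors, had 176 reads in the mature and 528 in the immature library and was 3.2-fold lower (2.7 to 3.82). The level ratio of Nqo1 to Nqo2 was 4.47 (3.7 to 5.41) in the mature and 0.485 (0.388 to 0.602) in the immature library. Of 14 other genes for quinones, carbonyls and drugs, 1 was at least 2-fold higher and 3, Nqo2 included, were lower, with a median of -0.20. The aldo-keto reductase Akr1b8 was 2.41-fold higher (1.78 to 3.3), Aldh2, a mitochondrial aldehyde dehydrogenase, 2.35-fold lower (2.22 to 2.49) and Akr1b3 2.74-fold lower (1.96 to 3.9). Reads covered 24.6% of the Akr1b3 model in the mature and 30.5% in the immature library, so its level is uncertain.

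The genes listed under supply of NADPH, the reductant drawn on by Txnrd1, Gsr and Nqo1, lay mostly within 2-fold and on the lower side in the mature library. NADPH itself was not measured, and not every listed gene encodes an enzyme that makes it. All 14 with at least 1 RPKM had a log2 fold below 0, as did 5590 of the 11547 genes compared, and their median was -0.88. Of the 14, 5 were lower by at least 2-fold, 9 lay within 2-fold and 0 were higher, against 11.3% of all genes called lower. Idh2, the mitochondrial isocitrate dehydrogenase that makes NADPH, stood at 16.3 RPKM in the mature and 68.0 RPKM in the immature library, 4.18-fold lower (3.6 to 4.85). Mthfd1, of folate metabolism, was 3.01-fold lower (2.52 to 3.61) and Rpia, of the pentose phosphate pathway, 2.72-fold lower (2.18 to 3.4). G6pdx, which opens that pathway, was 1.31-fold lower (1.24 to 1.38), at 108 RPKM in the mature and 141 RPKM in the immature library. Me1, malic enzyme, had 8 reads in the mature and 4 in the immature library, under the 1 RPKM limit. The neutrophil list was lower alongside these genes, and its part was not tested.

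Of 8 genes listed under superoxide and peroxide removal, 0 were at least 2-fold higher and 1 was lower, with a median of -0.19. The lower gene was Ucp2, a mitochondrial carrier, 6.16-fold lower (5.87 to 6.48). Cat, catalase, stood at 167 RPKM in the mature and 113 RPKM in the immature library, 1.48-fold higher (1.41 to 1.57). Sod2, the mitochondrial superoxide dismutase, was 1.31-fold lower (1.23 to 1.4). Over all 8 lists, 122 other genes of the pathway had at least 1 RPKM, of which 11 were at least 2-fold higher (9.02%) and 22 at least 2-fold lower (18.0%). The share of higher genes was close to the 9.05% of all genes, and the share of lower genes stood above the 11.3% of all genes. With the counting interval wholly beyond 2-fold, 11.5% of the pathway genes and 8.67% of all genes were lower. The median log2 fold was -0.19.

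**Figure D4:**
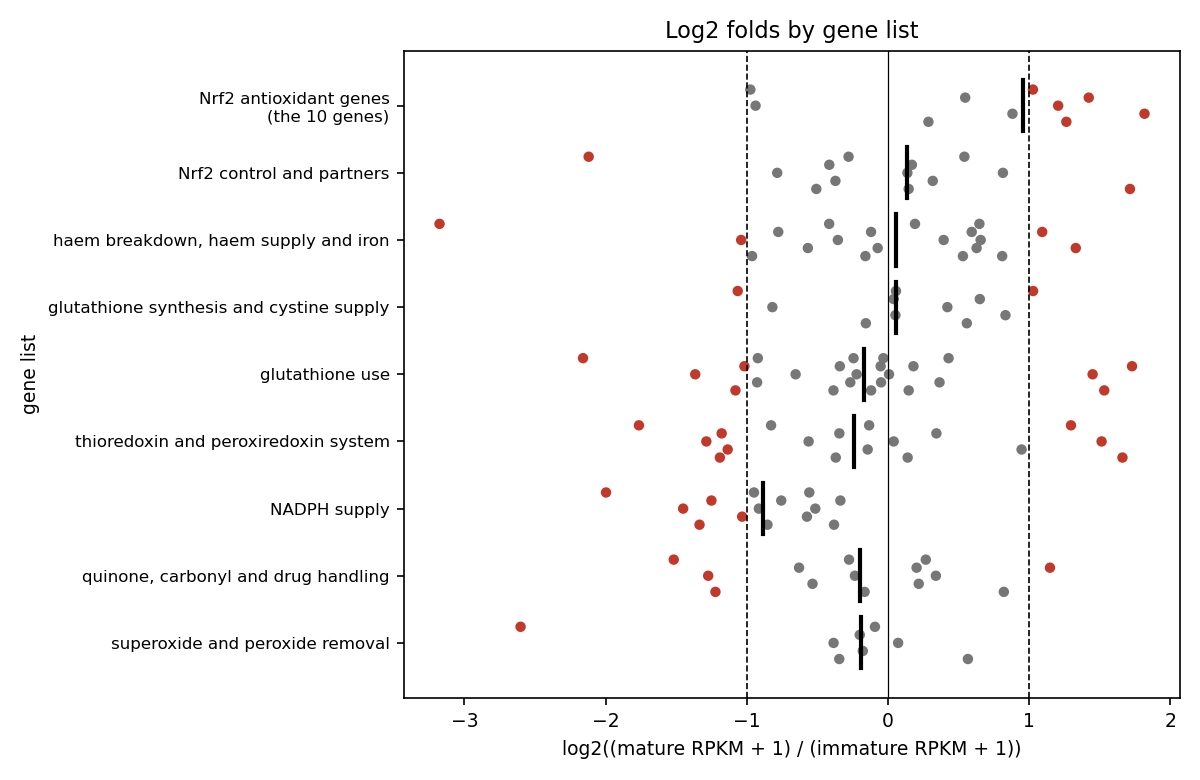
Each point is a gene with at least 1 RPKM in a library, by log2 fold of mature over immature RPKM with 1 added, in the 10 genes and in 8 lists of other pathway genes, with dashed lines at 2-fold and a black bar at each median. The median is 0.95 for the 10 genes and -0.88 for the NADPH supply genes.

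Genes most like those at least 2-fold higher were sought by the distance between log2(RPKM + 1) values over the 2 libraries, a measure in which many genes lie close together at low levels. Nearest to Hmox1 were the MHC class I heavy chain genes H2-D1, at 1365 RPKM in the mature and 382 RPKM in the immature library, and H2-K1, at 1492 RPKM in the mature and 441 RPKM in the immature library. Nearest to Prdx1 were Cxcl3, a chemokine gene, and Csf2rb, which encodes the shared chain of the GM-CSF receptor. For Csf2rb the match was loose, at a distance of 0.40 and a log2 fold of 0.65. Nqo1 was nearest to Ogfrl1 and Oas3, Gclc to Akap8l and Poglut1, and Srxn1 to Gde1 and Mrfap1.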

How the data were processed

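RNA of 1 mature and 1 immature dendritic cell sample was sequenced. The submitters' processing notes give the build mm8, while aligner, counter, strandedness and annotation are not stated there. The deposited columns, per the file headers, are unnormalised counts of uniquely placed reads per Entrez Gene number, gene model length, coverage as a percent of that length, and RPKM as made by the authors. Dividing each count by length in units of 1000 bases and by the total in units of 1000000 reads returned every RPKM within a relative deviation of 1.07e-07. Genes listed in only 1 file entered the other as 0 reads.

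Symbols came from RefSeq (GRCm38.p6) for 16220 of 18090 IDs. Because the builds differ, coordinates are given for promoter windows alone. Log2 folds used a pseudocount of 1 RPKM and genes reaching 1 RPKM in either library. Ratio intervals were Clopper-Pearson and level intervals exact Poisson (95%, scipy 1.17.1). Both cover counting error alone, as PCR copies cannot be told from separate molecules here. At 3 reads, a gene of 1000 bases stands at 0.372 RPKM in the mature and 0.397 RPKM in the immature library. The steps were tested on simulated counts with changes of 4-fold and counting error only. Such counts do not check calls near 2-fold or variation between samples. edgeR 4.0.16 and DESeq2 1.42.0 served for scaling only.

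The 10 genes, the 8 pathway lists and the 6 marker lists were chosen with earlier results of these data known. The genes named were the 10, up to 3 higher and 3 lower genes of each list past 2-fold, 21 genes fixed by name, and the 2 nearest genes of each higher gene. Nfe2l1 and Blvra were added after their values were seen, and not every gene the rule gives is reported here. Protein comparisons that had been planned were not made.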

Additional observations from a re-analysis of the deposited data

How the results depend on the processing

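Ratios of all 10 genes kept their direction under 4 other scalings (RPKM rescaled to a common sum, the same without the 50 most abundant genes, edgeR TMM and DESeq2 median-of-ratios), with Hmox1 between 3.44 and 3.82, Nfe2l2 between 0.49 and 0.544 and Txnrd1 between 1.8 and 2.0. Each scaling multiplies every ratio by 1 factor, and these factors lay between 0.974 and 1.08. None was large enough to turn a direction, so the kept directions follow from the construction. Of 40 such ratios 7 left their counting interval. The median log2 fold of the 10 genes ranged from 0.91 to 1.07, and rescaling without the 50 most abundant genes put the median of all genes at 0.13 in place of 0.026. The number of the 10 genes at least 2-fold higher was 4 or 5 except at 4-fold, where it was 0. The number at least 2-fold lower was 0 except under TMM, where it was 1. Of all genes, 469 were higher and 686 lower with a pseudocount of 5 RPKM, and 197 higher and 316 lower at 4-fold. Of the other pathway genes 7 were higher with a pseudocount of 5 RPKM, 0 higher and 4 lower at 4-fold, and 14 lower where the counting interval had to lie wholly beyond 2-fold, a rule chosen after seeing the data. Changes with threshold or pseudocount follow from their construction. No paired analysis was possible because each state has 1 library, and none could be left out. Nqo1, on 100 reads in the immature library, had the widest interval of the 10 genes.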
